A study of Urocitellus parryii with 24 samples.

Results

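Early torpor and late torpor in the liver of the arctic ground squirrel (AGS, Urocitellus parryii) were compared in 9 animals of the 24 in the series, 4 labelled early torpor and 5 labelled late torpor. All animals with these labels were taken, with 1 animal per array. The methods set the stages by share of a bout, with the days beside it. Early torpor was a small share of the bout, at 4 to 6 days. Late torpor was most of the duration of the previous bout, at 8 to 12 days. Stages came from the core body temperature that an abdominal transmitter recorded. The methods do not give bout length or time of season for each animal, so days in the cold cannot be told apart from them. Both groups were wild-caught squirrels kept at 4 h of light and 20 h of dark per day, without food for the whole hibernation season, and killed by decapitation without anesthesia. Arousing animals, also given below, were anesthetized with isoflurane first. The question addressed here is whether the liver transcript pool drifts over the days that an animal spends cold.

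Torpor is the deep phase of hibernation, in which metabolism is suppressed and the body cools to near the temperature of the burrow. In the cold, transcription and translation slow, and RNA turnover is thought to slow with them, so a transcript measured late in a bout may have been made before or early in it. A bout ends with a brief rewarming, the arousal episode, during which RNA and protein synthesis resume. The fasting liver of a hibernator lives on stored fat, through fatty acid oxidation and ketone body production, with gluconeogenesis supplying glucose.

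RNA from each liver was hybridized to a nylon membrane with 9600 spotted cDNA probes. A level is the log2 of a probe's background-subtracted median signal over the median of that value on the array, so a level of 0 is the array's median probe and a difference of 1 is a doubling. Gene symbols were available for 1329 probes, paired through a gene list of the study that holds only genes found to differ among torpor, arousal, and post-reproduction on these same arrays. The named genes are therefore no neutral sample of the liver. That choice took both torpor stages as 1 group, so a difference between them counted as spread within torpor. Genes that differ between the stages may thus be under-represented among the named genes, which was not tested. The liver label matched the markers: all 8 hepatocyte markers were over 2 times their local background on all 9 arrays, with albumin (ALB) at a mean level of 8.69 in early and 8.92 in late torpor.

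The 2 torpor stages differed little at most probes. Of 9595 probes with enough values to be tested, 2 passed an adjusted p of 0.05 in limma, which is 0.0208% of the probes, and neither has a symbol. Both of them, gene0222 and gene7962, were at or under 2 times background on all 9 arrays and were marked as empty spots on 8 and 6 arrays, so neither stage rose clearly over background and no fold is given. They had values above 0 on 2 early and 4 late arrays and on 3 early and 4 late arrays (limma adjusted p = 0.00608 and 0.0394). None of the 1329 genes with a symbol passed, and the smallest limma adjusted p among them was 0.214. At an unadjusted p under 0.05, 728 probes remained, or 7.59% of those tested, and 83 of the 1329 genes, or 6.25%. In what follows, higher and lower describe the values of these 9 animals and not a call.

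The size of the differences was set against the spread between animals. The median absolute difference between the stage means was 0.180 on the log2 scale, while the median SD between animals of the same stage was 0.315 in early torpor (n = 4) and 0.323 in late torpor (n = 5). The middle 90% of probes lay between -0.45 and 0.52, and 899 probes, or 9.37%, differed by more than 0.5. Among genes with a symbol that share was 6.62%. Only 73 probes differed by more than 1, of which 46 were higher and 27 lower in late torpor, and 47 of the 73 were over 2 times background on no array. The 95% interval of the difference lay within 1 of no difference for 8119 probes, or 84.6%, and for 1181 genes with a symbol, or 88.9%. For those probes a doubling between the stages lay outside the interval. At the median probe the interval reached 0.49 to either side, so a difference under about that size could not be told from 0 with these animals. Of genes with a symbol, 7 differed by more than 1, 5 of them higher and 2 lower in late torpor. With the membrane number (low or high) as a block in the fit, fewer intervals, 7080 of 9595, lay within 1 of no difference. In that fit 133 probes differed by more than 1. Low numbers ran up to 8 and high numbers from 16. In early torpor only animal 3 (membrane 19) was high, and in late torpor only animal 4 (membrane 5) was low. Stage and block were thus nearly the same split, and values with this block rest heavily on those animals.

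The tail leaned toward late torpor. Among the 728 probes at an unadjusted p under 0.05, 500 (5.21% of all probes) were higher and 228 (2.38%) were lower in late torpor, so 68.7% of the tail was higher. After quantile normalization in place of division by the array median, 416 of 718 were higher, or 57.9%. With normexp background correction 718 of 1080 were higher, or 66.5%. The 4 early and 5 late arrays did not overlap at 246 of the 9503 probes that had a value on every array, or 2.59%, with 168 higher (1.77%) and 78 lower (0.821%) in late torpor. Among genes with a symbol, 35 of 1325 did not overlap, or 2.64%, with 18 higher and 17 lower. The share among named genes was thus close to the share among all probes. The median of all differences was 0.01.

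**Figure D1:**
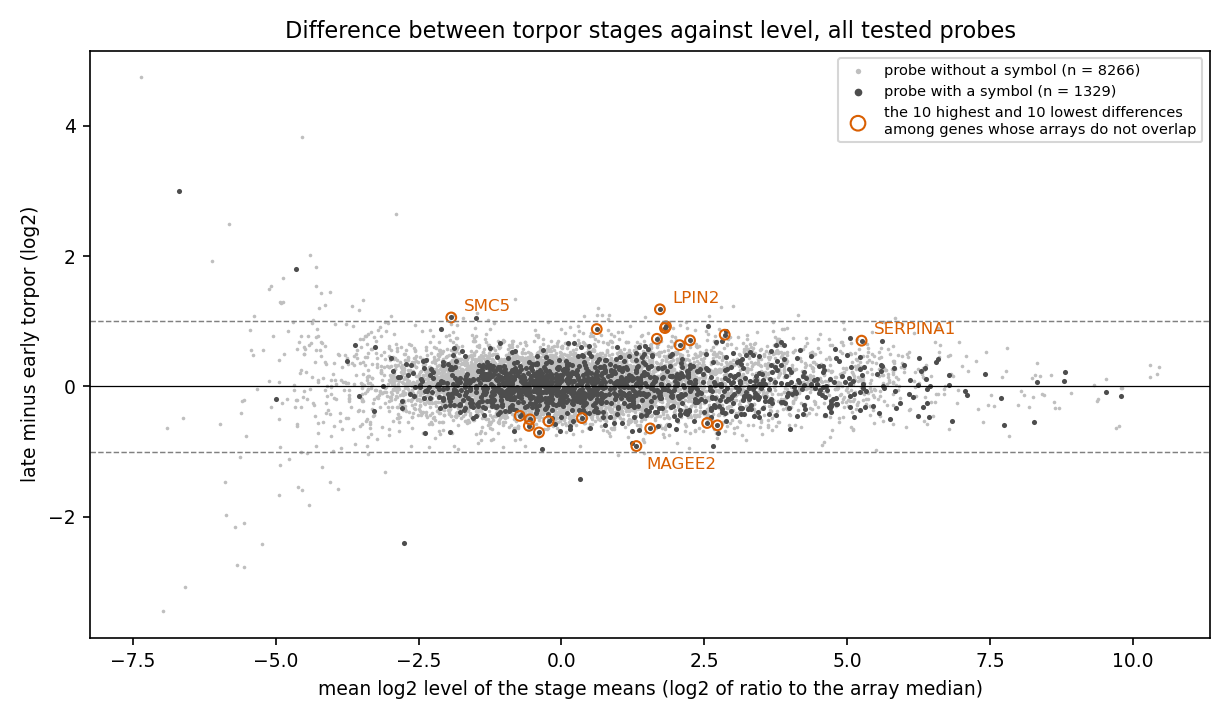
Difference between the stage means (late minus early torpor, log2) against the mean level of each of the 9595 tested probes (log2 of the ratio to the array median), with dashed lines at a difference of 1 and -1. Most probes lie between -0.45 and 0.52, and the points beyond 1 are mainly at the dim left side, where 47 of 73 were over 2 times background on no array.

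Correlations between arrays were close to each other across and within stages, with medians of 0.9588 across stages, 0.9593 within early, and 0.9600 within late torpor. Levels spread far more over the probes of an array (mean SD 2.07 in early and 2.08 in late torpor) than between stages. These correlations are therefore a weak measure of a stage difference. Over 9503 probes, which are not independent replicates, array levels correlated at 0.953 to 0.965 between early torpor animals (6 pairs), at 0.957 to 0.963 between late torpor animals (10 pairs), and at 0.947 to 0.965 between an early and a late animal (20 pairs). The first principal component, 19.0% of the variance, set apart early torpor animal 4 (score 38.1) and late torpor animal 4 (19.5) from the others, whose scores ran from -17.1 to -1.05. These are the 2 animals whose identifiers do not begin with 04. The second component, 14.5% of the variance, was between -23.9 and -12.8 in early torpor animals 1 to 3, at 4.82 in early torpor animal 4, and at 14.1, 3.77, 8.82, 10.7, and 16.5 in late torpor. Early torpor animals 1 to 3 lay below all late animals, and early torpor animal 4 lay inside their range. The mean score was -13.5 ± 13.1 (SD, n = 4) in early and 10.8 ± 4.91 (SD, n = 5) in late torpor (two-sided exact permutation test, p = 0.0317, adjusted p = 0.111 over 7 array measures).

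Array signal moved with the stage as well. The median signal of an array was 97.8 ± 14.6 intensity units (SD, n = 4) in early and 79.3 ± 7.28 (SD, n = 5) in late torpor, and the median background was 17.8 ± 1.84 and 14.7 ± 1.41 (two-sided exact permutation test, p = 0.0476 for each, adjusted p = 0.111 for each). The smallest p that 4 against 5 arrays allow is 0.0159. Early animals 1 to 3 had the highest signals at 113.7, 95.7, and 103.1 units, and early animal 4, at 78.9 units, lay among the late animals (72.8 to 91.5 units). The membranes differed too: in the scanner image names, early torpor membranes were numbered 8, 6, 19, and 7 and late torpor membranes 16, 20, 21, 5, and 22. All of them carried the code A1 there, the meaning of which is not stated. The part of signal strength and of membrane in the second component was not tested. The number of probes over 2 times background was 8832 ± 347 in early and 8897 ± 90.0 in late torpor (exact permutation test, p = 0.841).

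**Figure D2:**
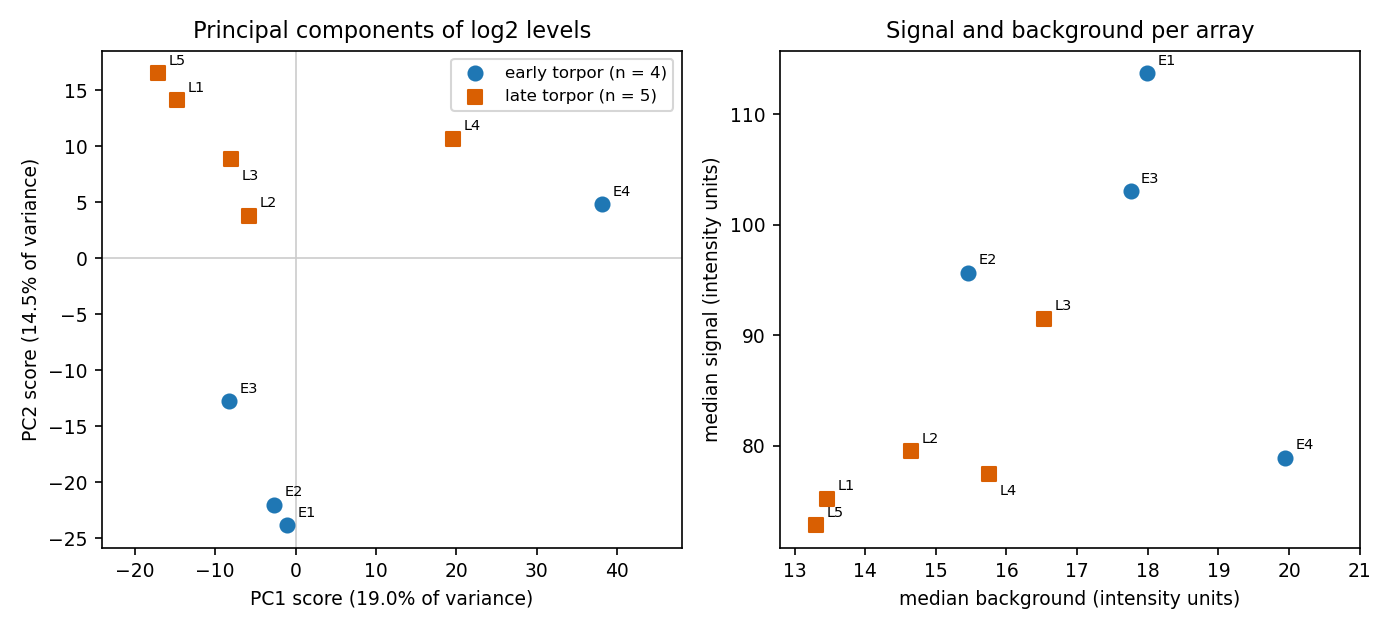
Left, scores of the 9 torpor arrays on the first 2 principal components of their log2 levels, and right, median signal against median background of each array in intensity units (circles, early torpor animals E1 to E4, squares, late torpor animals L1 to L5). On the vertical axis at left, E1 to E3 lie between -23.9 and -12.8 and all late animals between 3.77 and 16.5, with E4 at 4.82.

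Blood cell markers were lower in late torpor in 6 of 7 cases, with a median difference of -0.32 against 0.01 over all probes and -0.002 over genes with a symbol. Their summed level, as a multiple of the array median, was 20.9 to 39.7 in early and 13.9 to 19.9 in late torpor, so the stages did not overlap in that measure. Their mean log2 level did overlap, at 0.999 to 1.82 in early and 0.657 to 1.16 in late torpor. All 7 were over 2 times background on all arrays. LYZ, the lysozyme of macrophages and neutrophils, ran from 2.69 to 3.85 in early torpor and was at 1.74, 2.21, 1.48, 3.08, and 2.46 in late torpor, where only late animal 4 reached the early range, a difference of -0.91 (95% interval -1.61 to -0.20, limma adjusted p = 0.604) that was -0.45 with the membrane number as a block. HBA2, a hemoglobin chain of red cells, differed by -0.87 (-1.98 to 0.24), and by -0.44 without early animal 2 and -1.32 without early animal 4. Without early torpor animal 4 the median of the list was -0.08. Without both early animal 4 and late animal 4 it was -0.03, with 3 higher and 4 lower. In bulk liver, fewer blood cells and less RNA per blood cell cannot be told apart. The 6 endothelial and stellate cell markers, 5 of them over 2 times background on all arrays, had a median of -0.05 that turned to 0.04 without early animal 1, and summed levels of 8.12 to 15.6 in early and 9.12 to 12.2 in late torpor, and LRAT of stellate cells differed by -0.38 (-0.82 to 0.06). The 8 striated muscle markers, 6 of them over 2 times background on all arrays, had a median of 0.06 that was -0.003 without early animal 3, and summed levels of 4.85 to 5.36 and 4.82 to 5.49, with MYOM2, a sarcomere protein, at -0.39 (-0.79 to 0.01), a direction that turned with normexp background correction. The 8 hepatocyte markers had a median of -0.08, which turned to 0.06 without late animal 1 and 0.04 without late animal 3, and overlapping summed levels of 605.3 to 878.4 and 494.3 to 1300. The part of blood cell RNA in the differences that follow was not tested.

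LPIN2 had the largest difference among the genes with a symbol whose animals did not overlap. It encodes lipin 2, a phosphatidate phosphatase of triglyceride synthesis that can also act on transcription in the liver. Its level was 1.26, 0.92, 1.01, and 1.33 in early torpor and 1.92, 2.54, 1.61, 3.27, and 2.23 in late torpor. Every late animal lay above every early animal, and the late animals spread more widely, with an SD of 0.63 against 0.20. The difference was 1.18 ± 0.29 (SE), a 2.27-fold higher mean, with a 95% interval of 0.56 to 1.81 and a limma adjusted p of 0.369. Across 22 other settings of the analysis the difference stayed between 0.89 and 1.56.

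A further 9 genes completed the 10 highest differences among genes with separate stages, at 0.63 to 1.06. FLJ13236, a gene still under its clone name in the annotation, was at 1.51, 1.48, 1.35, and 1.13 in early and at 2.13, 2.50, 2.18, 2.09, and 2.54 in late torpor, a difference of 0.92 with an interval of 0.53 to 1.31 and one of the 2 smallest limma adjusted p-values of any gene with a symbol (0.214). The animals of each stage lay close together, with SDs of 0.17 and 0.21. ZNF664, a zinc finger protein, differed by 0.90 (0.45 to 1.34), and CFDP1, a chromatin-associated protein, by 0.88 (0.42 to 1.33). SMC5, a subunit of a DNA repair complex, differed by 1.06 (0.54 to 1.58) at low levels near -2, and only 2 of the 4 early arrays had it over 2 times background.

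Several of these genes belong to liver metabolism and secretion. SUCLG1, a subunit of the succinyl-CoA ligase of the tricarboxylic acid cycle, was at 2.25, 2.67, 2.50, and 2.42 in early and at 2.89, 2.89, 3.40, 3.29, and 3.81 in late torpor, a difference of 0.79 (0.32 to 1.26). LASS2, the ceramide synthase also called CERS2, differed by 0.73 (0.26 to 1.20). AZGP1, a secreted zinc-binding glycoprotein linked to fat mobilization, differed by 0.71 (0.26 to 1.16). SERPINA1, the main secreted inhibitor of neutrophil elastase, was at 4.84, 5.14, 4.75, and 4.88 in early and at 5.15, 5.30, 5.53, 5.74, and 6.29 in late torpor, a difference of 0.70 (0.20 to 1.20), with the lowest late animal just above the highest early one. PSMB7, a catalytic subunit of the proteasome, differed by 0.63 (0.24 to 1.02).

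The 10 lowest differences were smaller in size, at -0.92 to -0.45. MAGEE2, a member of the MAGE family of ubiquitin ligase partners, was at 1.59, 1.67, 1.73, and 2.08 in early and at 0.66, 1.06, 0.85, 0.71, and 0.98 in late torpor. The gap between the stages was wider than the range within either. The difference was -0.92 ± 0.18 (SE), with an interval of -1.30 to -0.53 and a limma adjusted p of 0.214. PSME4, a proteasome activator, differed by -0.71 (-1.18 to -0.23), and RPL12, a protein of the large ribosomal subunit, by -0.65 (-1.12 to -0.17). ATOX1, the chaperone that carries copper to the secretory pathway, was at 3.06, 2.99, 3.21, and 2.85 in early and at 1.77, 2.78, 2.40, 2.57, and 2.62 in late torpor, a difference of -0.60 (-1.07 to -0.13), with late animal 1 well under the rest.

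C6orf70 differed by -0.61 (-0.99 to -0.22) and C12orf57 by -0.56, with the nearest late animal at 2.74 against 2.75 for the lowest early animal. AKAP9, a scaffold that holds protein kinase A at the centrosome and Golgi, differed by -0.53 (-0.93 to -0.14). EIF1AX, a factor of start codon selection, differed by -0.51, with late animals at -0.48, -0.47, -0.52, -1.51, and -1.04 against -0.46 to -0.21 in early torpor, so late animals 4 and 5 set most of the difference. It was -0.79 with the membrane number as a block. JAGN1, a protein of the endoplasmic reticulum, differed by -0.49 (-0.85 to -0.13), and LOC100134369 by -0.45 (-0.87 to -0.04). The other 15 genes without overlap differed by -0.43 to 0.52, 8 higher and 7 lower. All 35 kept the sign of their difference in every setting in which they were tested. Settings that only left out animals could not turn it, since the genes were picked for stages that do not overlap.

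**Figure D3:**
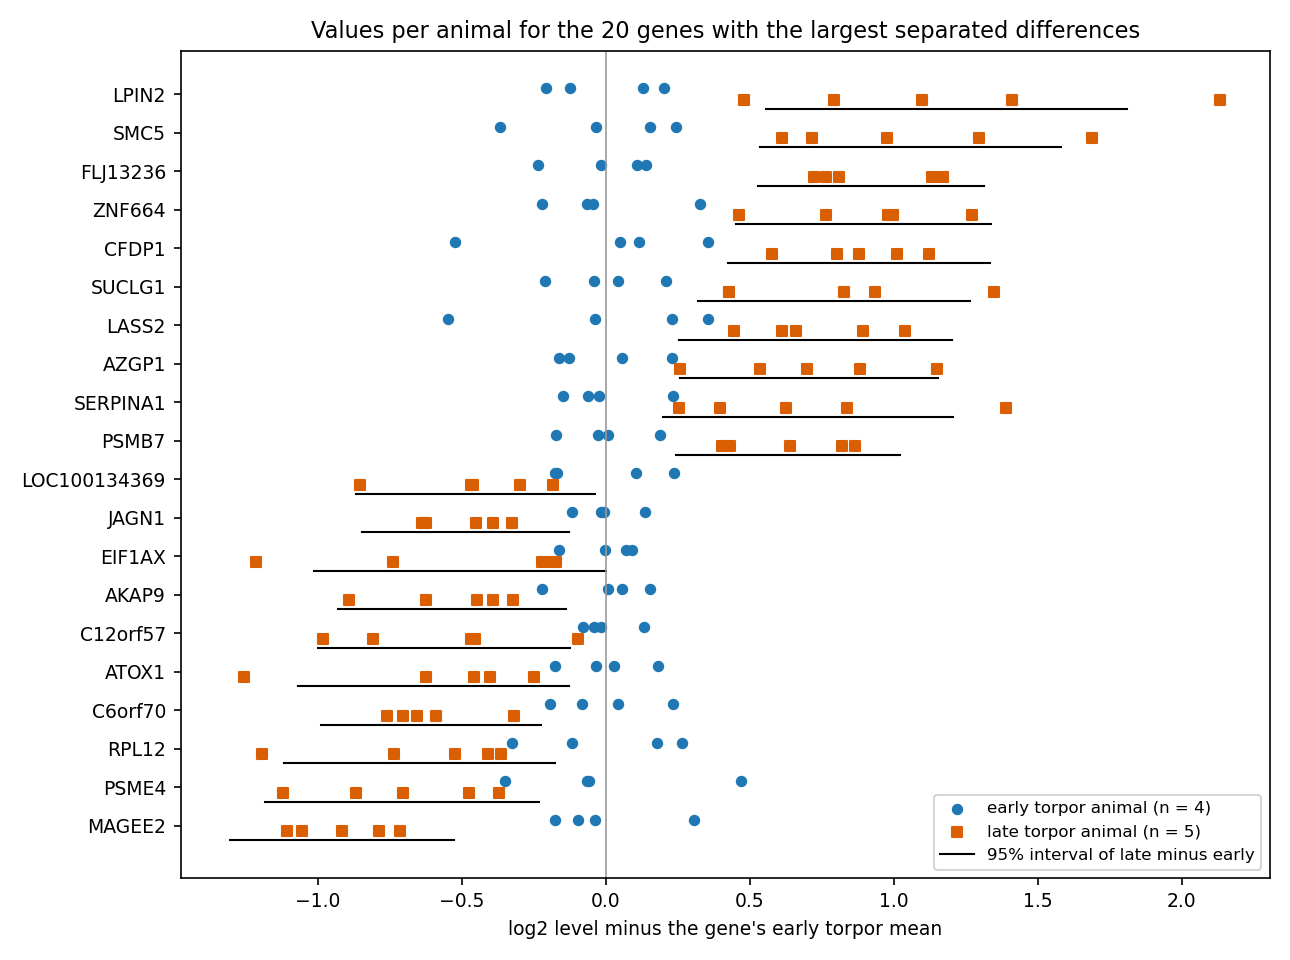
Level of each animal minus the early torpor mean of the gene (log2) for the 10 genes with the highest and the 10 with the lowest differences among genes whose stages do not overlap (circles, 4 early torpor animals, squares, 5 late torpor animals, line under each row, 95% interval of late minus early). LPIN2 is at 1.18 and MAGEE2 at -0.92, and in EIF1AX, C12orf57, and SERPINA1, among others, the nearest animals of the 2 stages almost touch.

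Genes of fuel use showed no common direction. Of 14 genes of mitochondrial beta-oxidation and ketone bodies, 8 were higher and 6 lower in late torpor, with a median of 0.09 that turned to -0.09 without late animal 3. At an unadjusted p under 0.05 were 2 of 14, against 7.59% of all probes and 6.25% of genes with a symbol. ACAA2, the thiolase that closes each round of mitochondrial beta-oxidation, ran from 4.47 to 5.11 in early torpor and up to 5.60 in late torpor, a difference of 0.48 (0.01 to 0.94) with overlapping animals. The acyl-CoA dehydrogenases went opposite ways, with ACADVL at 0.49 (-0.09 to 1.06) and ACADL at -0.35 (-0.86 to 0.16). With the membrane number as a block they were at 0.74 and -0.28. ACAA2 and ACADL were both higher in torpor than in arousal (limma adjusted p = 0.017 and 0.025), ACAA2 by 0.88. Their symbols come from the gene list chosen for differences among such states, so these p-values are no separate support.

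Of 16 genes of peroxisomal oxidation and fatty acid uptake, 11 were higher and 5 lower, with a median of 0.11 that turned to -0.09 without early torpor animal 4. AMACR, a racemase of branched fatty acids, differed by 0.44 (0.02 to 0.87) and PHYH, which starts the alpha-oxidation of phytanic acid, by 0.69 (-0.04 to 1.42), or 0.37 with the membrane block. PEX3, a peroxin that helps to build peroxisomes, differed by -0.65 (-1.31 to 0.01), and by -0.22 with the membrane number as a block. EHHADH, a bifunctional enzyme of peroxisomal beta-oxidation, differed by 0.17 (-0.51 to 0.85) and SLC27A2, a fatty acid transporter and activating enzyme, by -0.36 (-0.91 to 0.19).

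Of 13 genes of lipogenesis and the pentose phosphate pathway, 10 were lower, with a median of -0.11 that turned to 0.04 without early torpor animal 4. TKT, the transketolase of that pathway, differed by -0.46 (-0.90 to -0.02), AGPAT3, an acyltransferase of phospholipid synthesis, by -0.53 (-1.09 to 0.04) but by -0.12 with the membrane number as a block, and ACLY, which makes cytosolic acetyl-CoA, by -0.68 (-1.57 to 0.21). ACLY shows how 1 animal set such a value, since early animal 4 was at 1.13 while all the other animals lay between -1.52 and -0.55. ELOVL6, a fatty acid elongase, differed by 0.42 (-0.36 to 1.19). The 10 sterol synthesis genes were 5 higher and 5 lower with a median of -0.08, and 8 of 10 were lower without early animal 1 or early animal 4. The median ran from -0.15 without late animal 4 to -0.046 without early animal 4, with FDPS of the mevalonate pathway at -0.25 (-0.64 to 0.15) and INSIG1, a brake on sterol sensing, at -0.19 (-0.63 to 0.24).

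Of 13 genes of gluconeogenesis and glycolysis, 9 were higher, with a median of 0.07 that turned to -0.02 without early animal 4. GOT2, the mitochondrial aspartate aminotransferase, was at 4.63, 4.56, 4.23, and 3.91 in early and at 3.40, 3.76, 3.93, 3.96, and 3.35 in late torpor, a difference of -0.65 (-1.12 to -0.19, limma adjusted p = 0.554), and only early animal 4 lay within the late range. G6PC, which releases free glucose, differed by 0.46 (-0.12 to 1.04). PCK1, the committed enzyme of gluconeogenesis, differed by 0.07 (-0.67 to 0.81), and its direction turned in several settings, among them normexp background correction.

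Heat shock proteins and their helpers differed little. The 95% interval of all 19 lay within 1 of no difference, with a median of 0.04 that was -0.01 without late animal 1. HSPA8, the constitutive Hsp70, differed by -0.05 (-0.66 to 0.57) and changed sign in some settings, and HSP90AA1 differed by 0.40 (-0.07 to 0.86). CHORDC1, an Hsp90 cochaperone, was at -0.90, -0.28, -1.13, and -0.31 in early and at -0.49, -0.23, 0.23, -0.09, and -0.38 in late torpor, a difference of 0.46 (-0.04 to 0.96). DNAJC18, of the Hsp40 family, differed by 0.37 (-0.06 to 0.80). With the membrane number as a block the difference was larger, at 0.67 for CHORDC1 and 0.53 for DNAJC18.

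Of 22 RNA-binding proteins, 15 were higher in late torpor, with a median of 0.11 that ranged from 0.06 to 0.14 as each animal was left out. PABPC1, the main poly(A)-binding protein, was at 3.05, 3.72, 3.67, and 3.61 in early and at 4.22, 3.65, 3.93, 4.41, and 4.74 in late torpor, a difference of 0.68 (0.15 to 1.20, limma adjusted p = 0.597). HNRNPL, a splicing regulator, differed by 0.45 (0.05 to 0.85), and FUBP1, which binds single-stranded DNA and RNA, by 0.29 (-0.08 to 0.67). CIRBP, the cold-inducible RNA-binding protein, was at 3.03, 3.15, 3.02, and 2.69 in early and at 3.07, 3.41, 2.82, 2.76, and 3.09 in late torpor. Its stages overlapped almost fully, with a difference of 0.06 (-0.35 to 0.48) whose sign turned in some settings. Of 13 splicing factors, 8 were lower, with a median of -0.07 that turned to 0.05 without late animal 5, SFRS1 at 0.67 (0.10 to 1.23) and SF3B1 at -0.44 (-0.98 to 0.09).

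Ribosomal protein genes leaned the other way. Of 19 cytosolic ribosomal proteins, 15 were lower in late torpor, with a median of -0.29 against 0.01 over all probes and -0.002 over genes with a symbol. Beside RPL12, RPS15A differed by -0.47 (-0.96 to 0.02), RPL27 by -0.39 (-0.80 to 0.02), and RPL41 by -0.52 (-1.12 to 0.07). The mean level of the list was 3.62 to 3.83 in early torpor and 2.92, 3.46, 3.91, 3.44, and 3.51 in late torpor, so late animal 3 was above all early animals and late animal 1 far below them. The median was -0.21 without late animal 1 and -0.41 without late animal 3, with 14 to 18 of the 19 lower whichever animal was left out. Of 12 translation factors, 6 were higher and 6 lower, with a median of -0.02 that was 0.03 without late animal 5 and EIF4G2 at -0.24 (-0.62 to 0.15) beside EIF1AX. Of 21 respiratory chain and ATP synthase genes, 12 were lower with a median of -0.14, which was -0.008 without late animal 1, with 11 of 21 lower, and -0.048 without late animal 5. They include NDUFB9 of complex I at -0.40 (-0.78 to -0.02), whose animals did not overlap. ATP5G1, a subunit of the ATP synthase, was at -0.34 (-0.84 to 0.15). It was at -5.3e-05 with the membrane number as a block, a fit that leans on early animal 3 and late animal 4.

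The proteasome list of 10 genes split evenly, 5 higher and 5 lower with a median of 0.03 that lay between -0.08 and 0.20 as each animal was left out. At an unadjusted p under 0.05 were 3 of 10, against 7.59% of all probes and 6.25% of genes with a symbol. These were PSMB7 and PSME4, given above, and PSMD12, a subunit of the regulatory particle, at 0.63 (0.01 to 1.24). Of 27 secreted liver proteins, 15 were higher, with a median of 0.16 that turned to -0.04 without early animal 3 and to -0.02 without late animal 4. Beside SERPINA1, complement C3 differed by 0.47 (-0.04 to 0.98) and SERPINA7, the thyroxine-binding globulin, by -0.41 (-0.85 to 0.03). Of 35 drug metabolism genes, 20 were higher, with a median of 0.03 that turned to -0.06 without early animal 1, -0.02 without late animal 4, and -0.01 without late animal 5. The glutathione transferases GSTM1 and GSTM4, whose close sequences may share signal on a cDNA membrane, differed by 0.86 (-0.01 to 1.73) and 0.74 (-0.05 to 1.53), with early animal 4 the lowest in both at 1.02 and 3.41.

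Of 22 signal-responsive and stress-response genes, 16 were lower in late torpor with a median of -0.12, although LPIN2 was the highest of the list. KLF9, a transcription factor under glucocorticoid control, differed by -0.42 (-0.93 to 0.08), MT1E, a metallothionein, by -0.46 (-1.05 to 0.14), and SMAD5, a mediator of BMP signals, by 0.31 (-0.22 to 0.85). The median was -0.03 without early animal 4, with 12 of 22 lower. Of the 20 lists compared here, none held a gene with an adjusted p under 0.05, and the 34 genes that the study names in its text ranged from -0.37 to 1.18, with 31 intervals within 1 of no difference.

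**Figure D4:**
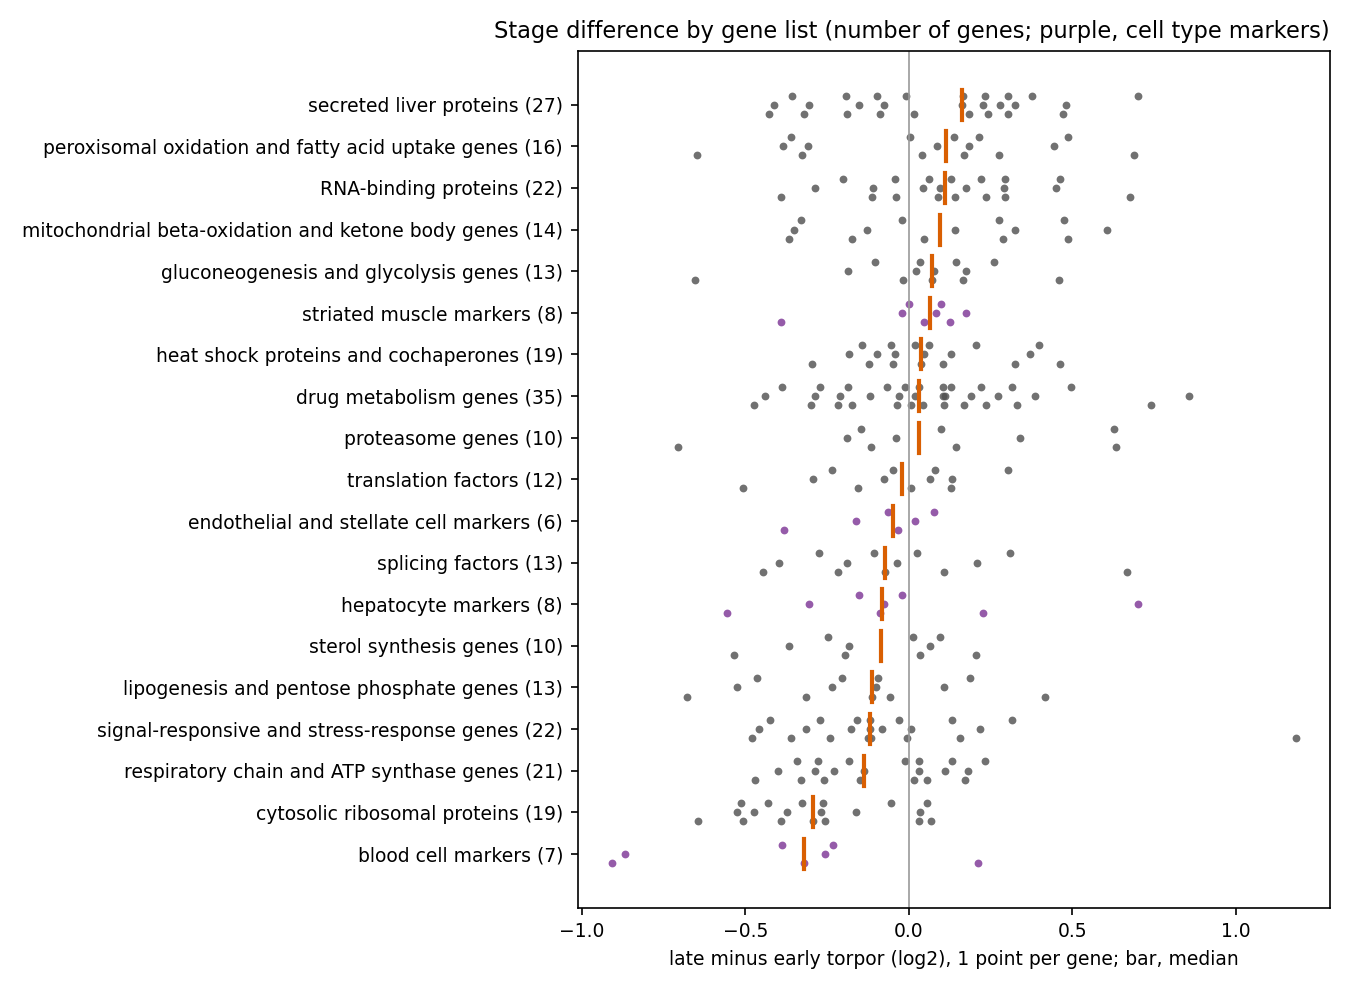
Difference of late minus early torpor (log2) for each gene of 19 lists, 1 point per gene, with a bar at the median of the list (grey, pathways, purple, cell type markers) and the number of genes beside each name. Blood cell markers (-0.32) and cytosolic ribosomal proteins (-0.29) have the lowest medians, secreted liver proteins (0.16) the highest, and the single point at 1.18 is LPIN2.

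Other contrasts on membranes with the code A1 are given beside the torpor stages. Torpor and arousal were compared on the 16 arrays with A1 membranes, 9 in torpor and 7 in arousal, in an analysis where 140 of 9591 probes passed an adjusted p of 0.05 in limma, or 1.46%, with 127 of them higher in torpor. With quantile normalization 14 of 25 called probes were higher in torpor, and 526 of 1015 at an unadjusted p under 0.05 against 1199 of 1544 without it. The median absolute difference was 0.184 in that contrast, 0.212 between early and late arousal (4 and 3 arrays), and 0.180 between the torpor stages, and since fewer arrays give larger differences by sampling alone, these values do not rank the contrasts. Early and late arousal gave 0 called probes (0%) in limma, with 697 at an unadjusted p under 0.05 (7.27%). The difference between the torpor stage effect and the arousal stage effect gave 0 called probes (0%), with 663 at an unadjusted p under 0.05 (6.91%), so no stage effect was shown to be particular to torpor. The torpor stage comparison, torpor against arousal, and the difference of stage effects share the torpor arrays and are given side by side only.

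Set in the order of a bout, individual genes took different courses, each from different animals. LPIN2 was at a mean of 1.99 ± 1.14 (SD, n = 3) in late arousal, 1.13 ± 0.20 (n = 4) in early torpor, 2.31 ± 0.63 (n = 5) in late torpor, and 2.90 ± 0.44 (n = 4) in early arousal. Its stage effect in torpor exceeded that in arousal by 2.10 (limma unadjusted p = 0.00148, adjusted p = 0.478). LPIN2 was chosen for its torpor stage difference, which is part of that value, so the unadjusted p is no separate support. FLJ13236, MAGEE2, and RPL12 were chosen by their torpor stage difference as well. FLJ13236 was at 2.29 ± 0.21 in late torpor and between 1.14 and 1.37 on average in the other 3 stages. MAGEE2 was highest in early torpor at 1.77 ± 0.21, with 0.85 ± 0.17 in late torpor, 0.47 ± 0.38 in early arousal, and 0.22 ± 0.27 in late arousal, and it was higher in torpor than in arousal by 0.90 (limma adjusted p = 0.0097). RPL12 was also highest in early torpor, with means of 1.88, 1.23, 0.48, and 0.60 in early torpor, late torpor, early arousal, and late arousal. CIRBP was higher in torpor than in arousal by 1.23 (limma adjusted p = 0.0011), with means of 2.97 and 3.03 in the torpor stages. CHORDC1 had its highest mean in early arousal at 0.64 against -0.19 in late torpor. All genes with a symbol come from the list chosen for differing among torpor, arousal, and post-reproduction on these arrays. The p-values of torpor against arousal for MAGEE2 and CIRBP are therefore no separate support.

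**Figure D5:**
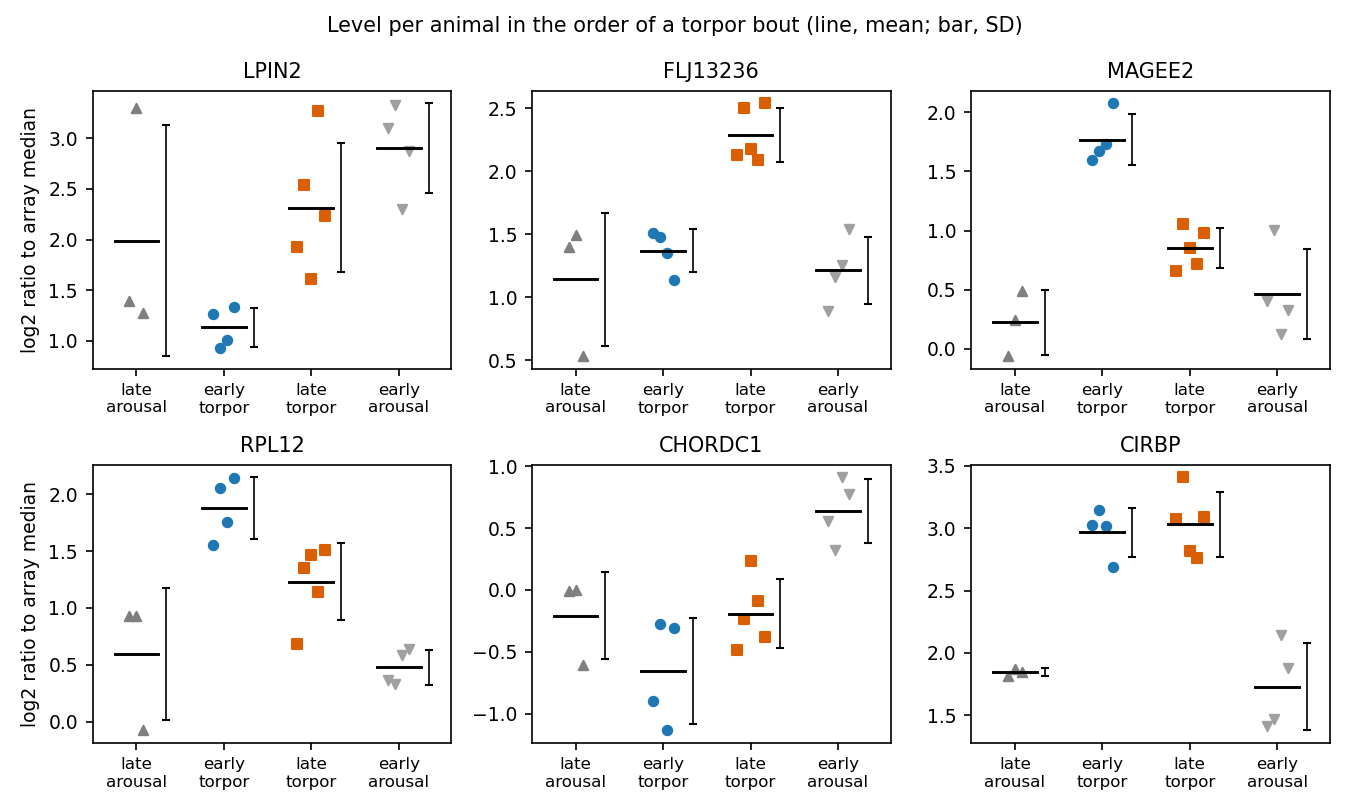
Level of each animal (log2 of the ratio to the array median) for 6 genes in late arousal (n = 3), early torpor (n = 4), late torpor (n = 5), and early arousal (n = 4), with the mean as a line and the SD as a bar. LPIN2 is at 1.13 in early and 2.31 in late torpor, MAGEE2 at 1.77 and 0.85, and CIRBP at 2.97 and 3.03.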

How the data were processed

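RNA of 9 torpid AGS livers was compared between 4 early and 5 late torpor animals, grouped by the status in the labels. RNA was amplified, labelled with 33P, and hybridized in the same batch. Nothing states that the animals were paired. Per the file headers, the authors deposited 1 ImaGene 6.1.0 export per membrane, with signal and background intensity by spot and a quality score, the flag, that marks spots taken as empty. They also deposited a table of each background-subtracted median signal as a ratio to the array median, with 0.002 for empty spots, used here as an alternative. Here the same division was repeated on the intensities and log2 taken, and the 226 of 86400 torpor spots at or below 0 were missing values. The fit leaves out such spots, so 9503 probes had all 9 values and 5 probes could not be tested.

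Stages were compared with limma 3.58.1 in R 4.3.3 (lmFit and eBayes on the 9 arrays, Benjamini-Hochberg adjustment over all probes tested). Array measures were compared by exact permutation tests in scipy 1.17.1, and plots were drawn with matplotlib 3.10.9. The fit was tested on simulated data. Symbols came from the state means of the study's gene list, matched within 1e-04, and RefSeq added none. Named genes are the 2 to 4 genes of each list with the smallest unadjusted p, genes of the study's text that bear on a list, and the 10 highest and 10 lowest differences among genes without overlap. Some genes under this rule are not reported here. The members and lists were chosen with earlier results of these data known.

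Median signal per array was 72.8 to 113.7 intensity units over a background of 13.3 to 19.9, and the number of arrays limits the precision. Alternatives were quantile normalization, normexp (offset 50), spots at or below 0 set to a floor, the deposited ratio, mean pixel values, leaving out dim probes, the identifier prefix or membrane number as a block, fits over 18 or 24 arrays, and leaving out each array. Chosen after seeing the data were empty spots as missing, animals with prefix 04 only, and centring 96 blocks of each membrane.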

Additional observations from a re-analysis of the deposited data

Results flagged for a closer look

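Of 146 sets of 4 or 5 animals examined (66 genes named in the text and 7 array measures in each stage), 4 held an animal far from the rest of its stage by Dixon's ratio, and chance alone flags about 1 in 20. On the first principal component, early torpor animal 4 was at 38.1 while the other early animals lay between -8.24 and -1.05. INSIG1 was at 1.04 in early torpor animal 2, below the other early animals, the highest of which was at 1.46. PABPC1 was at 3.05 in early torpor animal 1 against 3.61 to 3.72, which widens its difference. RPL27 was at 2.72 in late torpor animal 3 against 2.12 to 2.27, and that animal also had the highest mean level of the ribosomal protein genes.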

How the results depend on the processing

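No paired analysis was possible because each animal was killed at sampling, and the 2 stages hold different animals by their identifiers. The 2 called probes became 1 with quantile normalization, the prefix as a block, or the fit over 18 arrays, and 0 with normexp, the floor, the deposited ratio, mean pixels, empty spots as missing, dim probes left out, the membrane block, 24 arrays, or animals with prefix 04 only. Leaving out each array gave 0 to 2 called, 577 to 783 at an unadjusted p under 0.05, 354 to 535 without overlap (fewer animals separate more easily), a median absolute difference of 0.18 to 0.20, and 7529 to 7925 intervals within 1. The membrane block gave 7080 intervals within 1. The fit over 24 arrays gave 458 at an unadjusted p under 0.05, and animals with prefix 04 only gave 787 without overlap. No gene with a symbol passed in any of 22 settings, where the smallest adjusted p was 0.066. The interaction gave 1 call with the floor and 0 to 1 with an array left out. Torpor against arousal gave 74 calls with normexp, 25 with quantile normalization, 263 with mean pixels, and 52 to 211 with an array left out. Without single arrays the stage difference ran from -24.9 to -13.3 for median signal, -3.82 to -2.33 for median background, -106 to 142 for probes over 2 times background, -0.0031 to 0.0262 for the SD of log2 values, -8 to 3.75 for empty spots, -24.8 to -7.69 for the first component, and 16.2 to 26.5 for the second. Of 66 genes named, 62 kept their sign in every setting. Those picked for stages that do not overlap could not turn sign when animals were only left out. PCK1 was at -0.077 with normexp, -0.14 with centred blocks, and -0.32 with prefix 04 only, and at -0.21 to 0.31 without single arrays. HSPA8 was at 0.13 with centred blocks and 0.10 with prefix 04 only, and at -0.29 to 0.096 without single arrays. CIRBP was at -0.064 with normexp, -0.051 with centred blocks, and -0.052 with the membrane block, and at -0.033 to 0.13 without single arrays. MYOM2 was at 0.020 with normexp. The causes were not tested.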
